A study of Homo sapiens with 21 samples.

Results

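The genes that copy chromosomal DNA were followed here through the 7 groups of an RNA sequencing experiment on NLF, a human cell line derived from a neuroblastoma, a childhood tumour of the sympathetic nervous system. They are genes of the replication machinery chosen by name, as the entries of the deposited expression table that carry 1 of 49 listed symbols. The list was chosen with earlier results of these data known. Of these names, 48 had an entry, out of 57820 genes in the table; UHRF1 was not analysed here. All 48 reached a scaled FPKM of 1 in 3 or more libraries and were tested, among 16092 genes that passed this filter. FPKM (fragments scaled to transcript length and sequencing yield) is a level per transcript length, so levels of different genes can be set side by side.

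Replication starts at origins that are licensed in G1 phase, when the origin recognition complex (ORC), CDC6 and CDT1 load the ring-shaped MCM helicase, which stays inactive until CDC45 and the GINS complex join it in S phase. Polymerase alpha with its primase then lays down primers, the RFC clamp loader places the PCNA ring around DNA, and polymerases delta and epsilon extend the strands while RPA covers single-stranded DNA and ribonucleotide reductase supplies deoxynucleotides. Most of these genes are transcribed under E2F transcription factors as cells pass from G1 into S phase, a step that growth factor signalling through RAS, MEK and ERK promotes.

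Parental NLF cells were set beside a control line, sgCON, made with a CRISPR-Cas9 lentivirus carrying a scrambled guide RNA, and beside YAPKO1 and YAPKO2, a pair of lines in which YAP1, the transcriptional co-activator at the end of the Hippo pathway, was knocked out. The sgCON, YAPKO1 and YAPKO2 lines were each kept in DMSO or in 20 nM trametinib, an inhibitor of the MEK kinases, for 72 h. The 3 derived lines thus share the virus and Cas9, which the parental cells do not carry, and the parental cells are labelled as DMSO samples. Each group had 3 libraries. The labels say neither that these were separate cultures nor whether a line grew from 1 cell. Each p-value rests on the spread among libraries of the same group, pooled over all 7 groups and drawn towards that of genes of like level. It therefore reflects how such libraries differ, possibly by technical variation alone.

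The level of YAP1, the targeted gene, was 29.4, 32.8 and 33.4 scaled FPKM in the parental libraries, 25.0, 24.2 and 27.7 in sgCON with DMSO and 22.7, 24.5 and 22.7 in sgCON with trametinib. It was 13.2, 12.9 and 9.06 in YAPKO1 with DMSO, 12.5, 11.9 and 10.1 in YAPKO1 with trametinib, 3.17, 2.69 and 2.81 in YAPKO2 with DMSO and 2.73, 1.16 and 3.69 in YAPKO2 with trametinib. Both knockout lines were below sgCON without overlap, and YAPKO2 was below YAPKO1. Between 13695 and 14528 genes had an FPKM of at least 1 in a library, and the number of reads behind the values is unknown. Libraries differed in how GC-rich transcripts were represented (the median deviation of GC-rich minus GC-poor genes), from -0.61 in a parental library to 1.36 in replicate 2 of YAPKO2 with trametinib on the log2 scale. Of 9 sympathetic neuroblastoma markers, 6 reached 1 FPKM in every library, while TH, the enzyme that starts catecholamine synthesis, stayed under 1 in every library. Their sum was 257 to 272 in parental cells, 314 to 329.8 in sgCON with DMSO and 292 to 320 with trametinib, 413 to 544 and 387 to 447 in YAPKO1, and 433 to 477 and 444 to 598 in YAPKO2. Within the list CHGA, a secretory granule protein, went from 0.77, 1.35 and 1.16 FPKM in YAPKO2 with DMSO to 19.5, 25.3 and 19.2 with trametinib, DBH, a later enzyme of catecholamine synthesis, from 0.45, 0.68 and 0.56 to 4.12, 6.84 and 3.17, and the transcription factor PHOX2A from 82.3, 91.2 and 93.9 to 149, 194 and 118. MYCN, alone in the list, went the other way in YAPKO2, from 117, 128 and 131 FPKM to 48.4, 54.3 and 40.3. HAND2 (means 75.6 and 85.8) and ISL1 (27.8 and 32.6) changed less. CHGA, DBH and PHOX2A also had higher means with trametinib in sgCON, though CHGA and DBH stayed under 1 FPKM in every sgCON library. Their means there went from 0.05 to 0.55, from 0.03 to 0.37 and from 72.7 to 90.0 FPKM. In YAPKO1 CHGA had 0.58, 0.14 and 0.57 FPKM with DMSO and 2.00, 2.00 and 2.67 with trametinib. DBH had 0.93, 1.02 and 1.10 there with DMSO and 5.66, 5.44 and 7.19 with trametinib. All 5 fibroblast-type genes measured (4 of the matrix and the receptor PDGFRB) also reached 1 FPKM in every library. Their sum was 833 to 903 in parental cells, 435 to 521 in sgCON with DMSO and 455 to 582 with trametinib, 216 to 490 and 182 to 263 in YAPKO1, and 376 to 607 and 197 to 343 in YAPKO2. LUM was the most abundant of them in each group without trametinib, while DCN was higher in YAPKO2 (mean 209 ± 9.96 FPKM, SD, n = 3) than in sgCON (13.9 ± 1.90) with DMSO. The part of either list in the results below was not tested. Sums of Schwann cell and epithelial markers stayed at or under 5.83 FPKM in every library, and blood and endothelial markers summed to at most 13.3.

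Promoters are shown because many members moved together in the comparisons below. RefSeq promoter windows (GRCh38.p14, 250 bases before to 50 after a listed start) matched 42 of the 48 members, with 53 windows in all since 9 members have several listed starts. An E2F-type motif (TTCCCGC or TTGGCGC or TTCGCGC, on either strand) stood in 36 of these 53 windows (67.9%), against 11.0% of all 35116 windows. By gene, 35 of 42 members (83.3%) had the motif in at least 1 window, against 13.1% of all genes. CCAAT, on either strand, stood in 60.4% of the member windows and in 34.6% of all windows, and the sequence TTTGAA, known from promoters of mitotic genes, in 1.89% and 15.2%. The 120 bases just before the most upstream listed start are printed for 8 members with an E2F-type motif in that stretch, of licensing, polymerase, clamp, fork turnover and deoxynucleotide genes, and for 2 members without one. They run 5′ to 3′ along the gene's strand in lower case, with E2F-type motifs in capitals.
ORC1: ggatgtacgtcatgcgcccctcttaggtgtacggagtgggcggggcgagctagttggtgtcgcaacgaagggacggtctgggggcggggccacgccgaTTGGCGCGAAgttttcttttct
MCM3: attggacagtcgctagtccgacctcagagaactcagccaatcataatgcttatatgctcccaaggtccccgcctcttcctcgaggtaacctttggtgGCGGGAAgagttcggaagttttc
MCM6: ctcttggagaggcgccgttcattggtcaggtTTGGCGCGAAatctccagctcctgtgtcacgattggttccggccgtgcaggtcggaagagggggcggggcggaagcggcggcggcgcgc
POLA1: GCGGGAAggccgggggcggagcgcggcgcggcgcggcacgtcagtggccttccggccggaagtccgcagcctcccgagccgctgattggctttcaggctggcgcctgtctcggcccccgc
POLE: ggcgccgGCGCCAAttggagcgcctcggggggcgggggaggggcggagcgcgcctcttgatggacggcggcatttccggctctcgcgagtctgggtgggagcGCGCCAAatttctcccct
PCNA: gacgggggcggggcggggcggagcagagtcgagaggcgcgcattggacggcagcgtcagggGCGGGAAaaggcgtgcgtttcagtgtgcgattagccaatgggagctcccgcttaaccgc
DTL: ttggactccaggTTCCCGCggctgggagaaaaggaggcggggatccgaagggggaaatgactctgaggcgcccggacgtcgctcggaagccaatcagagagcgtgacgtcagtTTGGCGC
TYMS: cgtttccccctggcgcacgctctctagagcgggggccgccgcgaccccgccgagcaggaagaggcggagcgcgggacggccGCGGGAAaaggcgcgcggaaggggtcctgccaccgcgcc
MCM10: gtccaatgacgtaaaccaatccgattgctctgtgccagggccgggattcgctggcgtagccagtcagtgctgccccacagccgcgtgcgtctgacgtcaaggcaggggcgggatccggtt
FEN1: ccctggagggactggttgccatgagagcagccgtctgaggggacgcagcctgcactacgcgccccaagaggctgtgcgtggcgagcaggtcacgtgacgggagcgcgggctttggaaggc
In GRCh38.p14 these stretches lie at chr1:52404424-52404543 on the minus strand for ORC1, chr6:52284743-52284862 on the minus strand for MCM3, chr2:135876444-135876563 on the minus strand for MCM6, chrX:24693798-24693917 on the plus strand for POLA1 and chr12:132687343-132687462 on the minus strand for POLE. The others lie at chr20:5126623-5126742 on the minus strand for PCNA, chr1:212035628-212035747 on the plus strand for DTL, chr18:657533-657652 on the plus strand for TYMS, chr10:13161438-13161557 on the plus strand for MCM10 and chr11:61792791-61792910 on the plus strand for FEN1. The motifs in ORC1 and in MCM6 are overlapping pairs, 22 and 19 bases before the start in ORC1 and 89 and 86 bases before it in MCM6. A match is a string of letters and not a bound site. Of the 35 members with the motif, 29 were called lower with trametinib in YAPKO2 (below), with a median log2 change of -0.87, and of the 7 without it, 5 were, with a median of -0.79.

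In YAPKO2 the replication genes were lower with trametinib: 40 of the 48 fell, 0 rose, and all 48 log2 changes were below 0. The count stands against a background of 20.1% of all tested genes called in either direction, and 11.5% called lower (limma, Benjamini-Hochberg adjusted p under 0.05 over all 16092 genes). The median log2 change of the members was -0.85, against -0.01 over all tested genes, and the changes ran from -1.27 for MCM10 to -0.30 for POLD1. In 42 members the 3 trametinib libraries all lay below the 3 DMSO libraries (15.4% of all tested genes). Since whole cultures were sequenced, fewer cells in S phase and less RNA per cell cannot be told apart. With a fit on these 2 groups alone, which leaves fewer samples to estimate the spread, 22 members were called; leaving out any 1 library gave 36 to 40. Of all genes called here 42.8% were higher, and 56.3% in the uncalibrated table taken as deposited; the members called were then 38, again all lower.

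**Figure D1:**
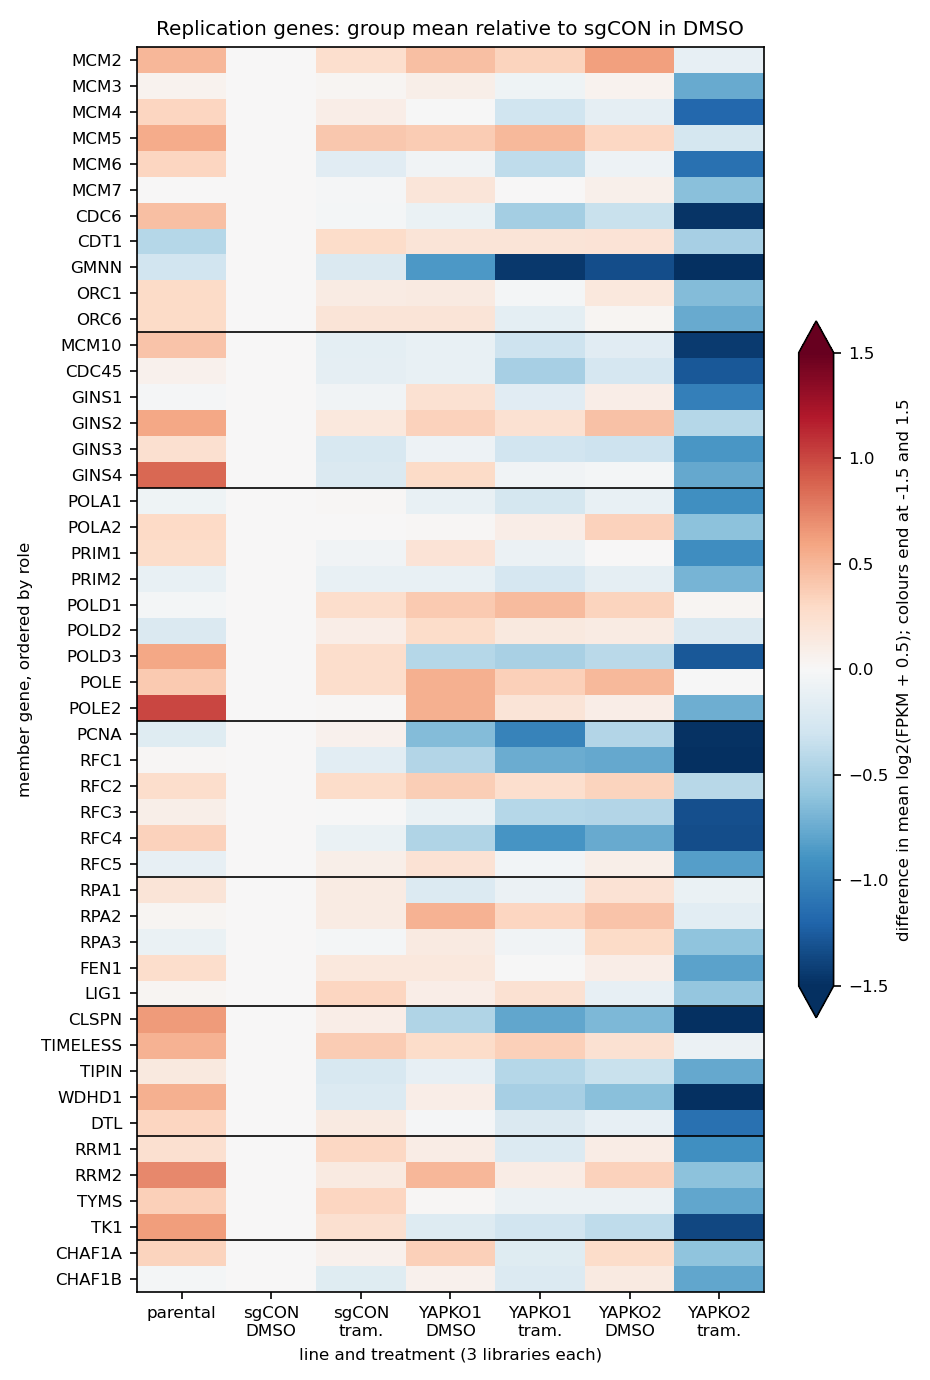
Mean log2(FPKM + 0.5) of each of the 48 members (vertical axis, ordered by role with lines between roles) in each of the 7 groups (horizontal axis, 3 libraries each), as the difference from sgCON in DMSO; red is higher, blue lower, and colours end at -1.5 and 1.5. The YAPKO2 trametinib column is the bluest for most members, and GMNN and PCNA are also blue in both knockout lines with DMSO.

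Among the 11 licensing genes, 10 fell with trametinib in YAPKO2, with a median log2 change of -0.80. CDC6, the ATPase that helps ORC load the helicase, stood at 40.9, 38.0 and 36.0 FPKM in DMSO and 18.3, 14.5 and 19.1 with trametinib, a log2 change of -1.13 ± 0.13, adjusted p = 8.62e-06. Its trametinib libraries all lay well under its DMSO libraries, at 45.7% of the DMSO level. All 6 subunits of the MCM helicase fell, from -1.04 ± 0.11 for MCM4 to -0.57 ± 0.18 for MCM5. MCM4 went from 201, 222 and 183 to 103, 111 and 81.3 FPKM, with an adjusted p of 2.81e-06. MCM7, the most abundant member in every group, went from 423, 521 and 436 to 292, 322 and 235 (-0.70 ± 0.13, adjusted p = 8.92e-04). In both genes the groups did not overlap, and replicate 3 was the lowest trametinib library. MCM2, the subunit that also carries histones, went from 136, 173 and 136 to 97.4, 113 and 62.3 FPKM (-0.73 ± 0.19, adjusted p = 0.0113). ORC1, the largest subunit of ORC, went from 24.0, 27.7 and 25.8 to 15.6, 16.3 and 11.9 FPKM and ORC6, its smallest, from 33.8, 29.4 and 30.9 to 18.7, 16.2 and 19.0.

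GMNN encodes geminin, the inhibitor that keeps CDT1 from loading the helicase again after S phase has begun. It had 45.9, 37.1 and 41.8 FPKM in YAPKO2 with DMSO and 16.6, 12.8 and 28.2 with trametinib, a log2 change of -1.16 ± 0.21, adjusted p = 7.69e-04. The trametinib libraries were all lower, with replicate 3 closest to the DMSO libraries. CDT1, the loading factor that geminin holds, was the licensing gene not called, at 25.2, 32.9 and 21.4 and 18.5, 22.3 and 9.66 FPKM (-0.70 ± 0.24, adjusted p = 0.0506). Its groups overlapped through replicate 2 with trametinib, and its transcripts are the most GC-rich of all members (65.2%).

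All 6 genes of helicase activation fell in YAPKO2 with trametinib (median log2 change -0.95). MCM10, which binds the helicase as it is switched on, went from 42.8, 37.9 and 35.3 to 16.6, 13.3 and 17.6 FPKM, a log2 change of -1.27 ± 0.16, adjusted p = 2.12e-05. This left 41.6% of the DMSO level, the smallest share among the 48 members, and its 3 values were below those of all 18 other libraries. CDC45, the helicase partner that completes the active complex, went from 35.0, 38.0 and 36.8 to 22.5, 17.5 and 14.3 FPKM (-1.02 ± 0.12). Within the GINS complex, whose 4 subunits join CDC45, GINS1 fell by the most (-1.13 ± 0.08, adjusted p = 6.74e-08) and GINS3 by the least (-0.55 ± 0.10, adjusted p = 9.36e-04). GINS1 had 36.6, 40.6 and 36.2 FPKM with DMSO and 17.8, 16.7 and 16.3 with trametinib, a tight set in each group.

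Of the 9 polymerase and primase genes, 6 fell in YAPKO2 with trametinib (median -0.80). The 4 subunits of polymerase alpha-primase all did, from -0.96 ± 0.23 for POLA2, its regulatory subunit, to -0.56 ± 0.09 for PRIM2, the large primase subunit. POLA2 went from 30.1, 32.6 and 24.6 to 15.1, 20.2 and 10.1 FPKM. POLA1, the catalytic subunit, went from 21.5, 21.2 and 23.0 to 11.9, 11.1 and 14.1 FPKM, and PRIM1, the small primase subunit that makes the RNA primer, from 56.4, 59.4 and 59.1 to 28.3, 26.8 and 36.5. Both genes had trametinib libraries below every other library of the study. The subunits of the other polymerases divided. POLD3, an accessory subunit of polymerase delta, fell from 17.1, 17.4 and 14.5 to 7.35, 9.46 and 9.42 FPKM (-0.87 ± 0.12, adjusted p = 5.77e-05). POLD1, its catalytic subunit, was at 59.0, 71.6 and 52.9 and 54.2, 62.1 and 35.5 FPKM (-0.30 ± 0.19, adjusted p = 0.298), and POLD2 at 256, 343 and 273 and 247, 292 and 161 (-0.34 ± 0.20, adjusted p = 0.244). The groups overlapped in both genes, with replicate 2 of trametinib inside the DMSO range and replicate 3 well below it. In polymerase epsilon, POLE2 fell (-0.83 ± 0.17, adjusted p = 0.00194) and the catalytic subunit POLE had a log2 change of -0.49 ± 0.18, adjusted p = 0.0669. The difference between subunits of 1 polymerase was not tested. POLD1, POLD2 and POLE are among the GC-rich members (64.8%, 58.8% and 55.5% GC), POLD3 and POLE2 are not (45.3% and 39.8%). After a spline correction for transcript GC content in each library, the changes were -0.45 for POLD1, -0.47 for POLD2, -0.56 for POLE and -0.79 for POLD3, and all 4 were called.

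Of PCNA and the 5 RFC clamp loader subunits, 5 of 6 fell in YAPKO2 with trametinib (median -0.84). PCNA, the sliding clamp that tethers the polymerases, went from 231, 221 and 232 to 109.5, 90.3 and 139 FPKM (-1.04 ± 0.12, adjusted p = 1.37e-05), with the groups far apart. RFC5 fell from 29.1, 34.0 and 29.2 to 17.4, 18.4 and 13 FPKM (-0.91 ± 0.11, adjusted p = 1.45e-05), and RFC3 from 37.6, 30.6 and 35.5 to 18.4, 12.1 and 28.2 (-0.88 ± 0.22, adjusted p = 0.00872). Replicate 2 was the lowest trametinib library for RFC3 and replicate 3 for RFC5. RFC1, the large subunit, was the one not called: its libraries had 28.9, 18.5 and 25.2 FPKM with DMSO and 14.7, 6.91 and 24.0 with trametinib (-0.79 ± 0.32, adjusted p = 0.0926). RFC1 spread widely with trametinib, with replicate 2, the library of highest GC trend, lowest and replicate 3 above 1 of the DMSO libraries. Its transcripts have 41.3% GC.

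Among 5 genes of single-strand binding and Okazaki fragment processing, 3 fell in YAPKO2 with trametinib (median -0.58). FEN1, the nuclease that trims the flap at the end of an Okazaki fragment, went from 157, 176 and 159 to 90.2, 92.3 and 78.5 FPKM (-0.91 ± 0.08, adjusted p = 2.64e-07). LIG1, the ligase that seals the same nick, was at 27.3, 27.3 and 22.5 and 23.7, 20.3 and 13.4 FPKM (-0.45 ± 0.19, adjusted p = 0.108), and replicate 1 with trametinib overlapped the DMSO libraries. RPA3, the small subunit of the RPA complex, fell from 287, 338 and 347 to 178, 187 and 159 FPKM (-0.89 ± 0.10, adjusted p = 7.59e-06), and RPA2 fell by less (-0.58 ± 0.11). RPA1, the large subunit that holds most of the DNA contacts, was not called, at 33.8, 39.2 and 32.5 and 29.5, 32.6 and 23.3 FPKM (-0.31 ± 0.17, adjusted p = 0.228). Its groups overlapped, and it was 1 of 2 members not called after the GC correction (-0.27, adjusted p = 0.235); the other was PRIM2 (-0.41, adjusted p = 0.248), which was called without it.

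Of 5 genes of fork protection and turnover, 4 fell in YAPKO2 with trametinib (median -0.99). CLSPN encodes claspin, which links a stalled fork to the checkpoint kinase CHK1. It went from 14.3, 10.9 and 13.3 to 5.88, 2.4 and 8.89 FPKM (-1.25 ± 0.28, adjusted p = 0.00403), lower in each trametinib library but spread widely among them. DTL, the substrate receptor of the ubiquitin ligase that destroys CDT1 in S phase, fell from 29.7, 32.0 and 30.8 to 14.6, 13.6 and 17.7 FPKM (-0.99 ± 0.09, adjusted p = 1.49e-06) with little spread. WDHD1, which ties the helicase to polymerase alpha, fell from 7.55, 7.68 and 6.43 to 3.16, 1.88 and 5.94 FPKM (-1.01 ± 0.29, adjusted p = 0.0222) and so did TIPIN (-0.43 ± 0.14, adjusted p = 0.0317). TIMELESS, the partner of TIPIN in the fork protection complex, had a log2 change of -0.31 ± 0.13, adjusted p = 0.0895.

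All 4 genes of deoxynucleotide supply fell in YAPKO2 with trametinib (median -0.97). The subunits of ribonucleotide reductase moved by like amounts: RRM1 went from 96.5, 117 and 109 to 47.6, 47.9 and 62.5 FPKM (-1.03 ± 0.11, adjusted p = 7.26e-06) and RRM2 from 89.1, 94.3 and 81.3 to 45.7, 49.6 and 40.9 (-0.95 ± 0.09, adjusted p = 2.02e-06). In both, all trametinib libraries were below all DMSO libraries. TK1, the salvage kinase for thymidine, fell from 65.6, 85.3 and 63.8 to 45.2, 42.6 and 23.4 FPKM and TYMS, which makes thymidylate, from 56.0, 59.0 and 56.0 to 36.2, 33.0 and 36.6. TYMS had the smaller change (-0.69 ± 0.08, against -0.99 ± 0.20 for TK1). CHAF1A and CHAF1B, subunits of the chromatin assembly factor CAF-1 that deposits histones behind the fork, both fell. CHAF1A went from 46.1, 45.9 and 43.3 to 27.7, 24.8 and 20.6 FPKM (-0.88 ± 0.14) and CHAF1B from 17.6, 19.4 and 16.5 to 10.1, 9.96 and 7.86 (-0.91 ± 0.14).

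**Figure D2:**
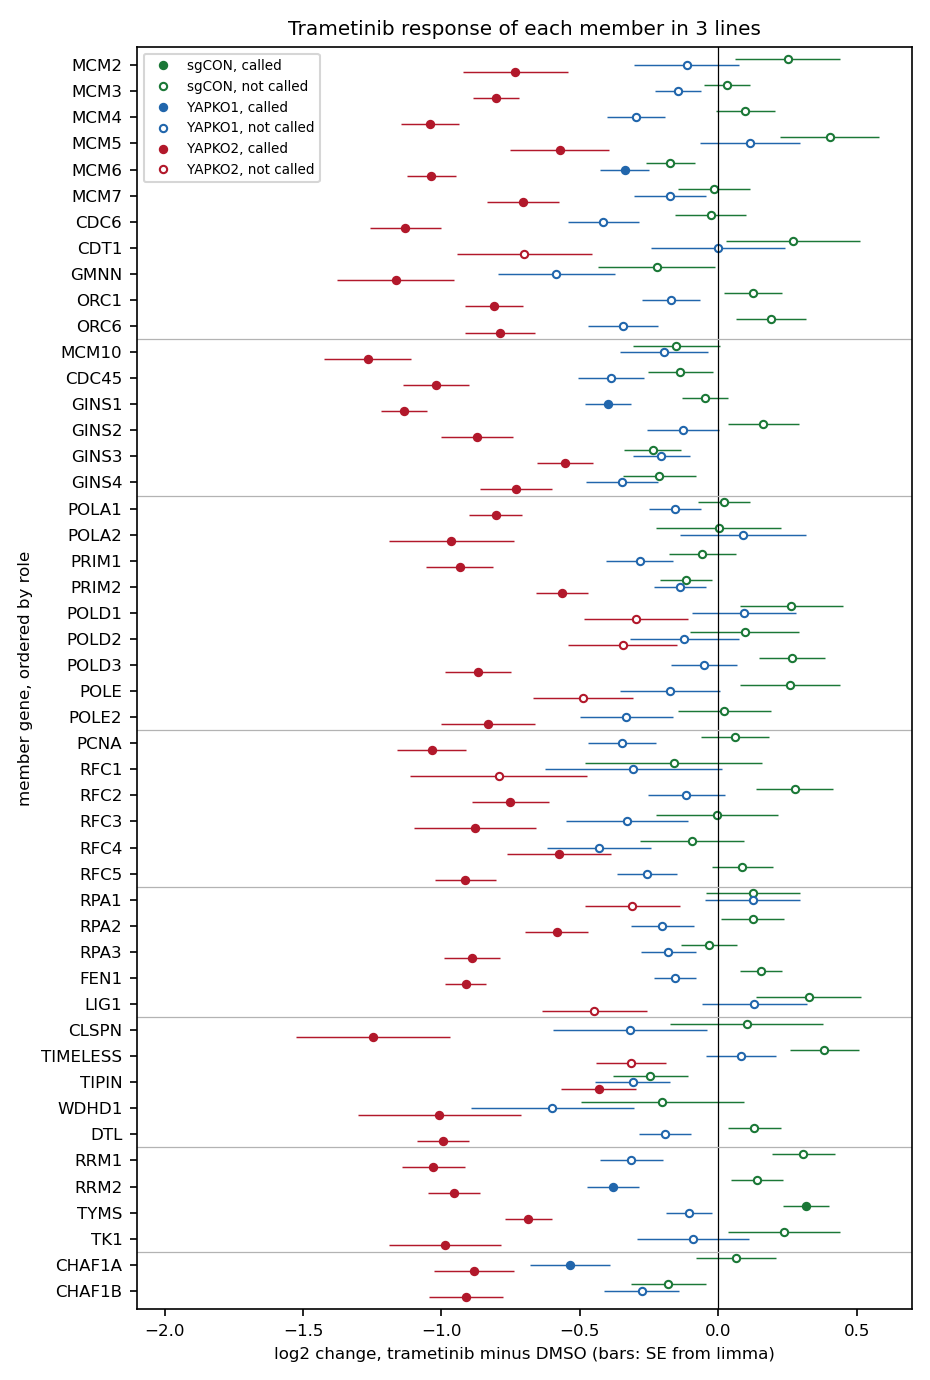
Log2 change with trametinib (horizontal axis, trametinib minus DMSO) of each member (vertical axis, by role) in sgCON (green), YAPKO1 (blue) and YAPKO2 (red); bars are standard errors from limma and filled points passed the test. The YAPKO2 point lies left of the other points for each of the 48 members, between -1.27 and -0.30, and the green points gather around 0.

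In sgCON the changes with trametinib were small, from -0.25 for TIPIN to 0.40 for MCM5. All 3 trametinib libraries lay above the 3 DMSO libraries in 20 members and below them in 8 (2700 and 3192 of all 16092 tested genes). Of the members, 1 of 48 rose and 0 fell, against 5.22% of all tested genes called and 2.28% called higher (43.7% of the calls higher, against 54.8% and 53.7% in the calibrated and uncalibrated tables taken as deposited), and the median log2 change was 0.08 (6 members had an unadjusted p under 0.05). The member that rose was TYMS, from 60.0, 56.2 and 66.7 to 76.0, 74.9 and 76.9 FPKM (0.32 ± 0.08, adjusted p = 0.0327). Its groups did not overlap, yet it was no longer called when any 1 of 5 of the 6 libraries was left out (0 members called without replicate 1 or 2 of sgCON with DMSO, or without replicate 1, 2 or 3 of sgCON with trametinib). Genes with large changes in YAPKO2 were not called here: MCM10 was at 41.6, 49.0 and 40.4 and 38.6, 37.6 and 41.2 FPKM (-0.15 ± 0.16), and RRM1 at 104, 99.0 and 95.0 and 127, 119.9 and 121 (0.31 ± 0.11, adjusted p = 0.153). RRM1 was higher in each trametinib library than in any DMSO library, a difference that did not pass the test over all genes. With a fit on the 2 sgCON groups alone 10 members were called, and after the GC correction 4.

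In YAPKO1 most changes with trametinib were below 0, and the share of members called in either direction was near the background. The share called lower was above its background, on 4 members. Of the 48 members 0 rose and 4 fell, against a background of 7.85% called in either direction and 3.88% lower (50.6% of the calls higher, 62.1% in the uncalibrated table as deposited). The median log2 change was -0.20, and 41 members were below 0. In 14 members all 3 trametinib libraries lay below the 3 DMSO libraries (1653 of all 16092 tested genes). Those that fell were MCM6, a helicase subunit (-0.34 ± 0.09, adjusted p = 0.0258), GINS1 (-0.40 ± 0.08, adjusted p = 0.0059), RRM2 (-0.38 ± 0.09, adjusted p = 0.018) and CHAF1A (-0.54 ± 0.14, adjusted p = 0.0287). RRM2 went from 97.8, 93.7 and 103 to 86.1, 69.9 and 70.5 FPKM and CHAF1A from 46.1, 37.5 and 62.2 to 31.3, 34.6 and 32.2. The groups did not overlap in either gene, but CHAF1A was spread widely with DMSO, where replicate 3 was highest. The count moved with single libraries: it was 10 without replicate 3 of YAPKO1 with DMSO, a library of high GC trend, and 1 without replicate 1 of that group or without replicate 3 of YAPKO1 with trametinib. It was 13 after the GC correction, 15 without 3 libraries of high GC trend and 0 with a fit on the 2 groups alone. The shares of all tested genes called under these settings are not given here, so these counts have no background beside them.

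**Figure D3:**
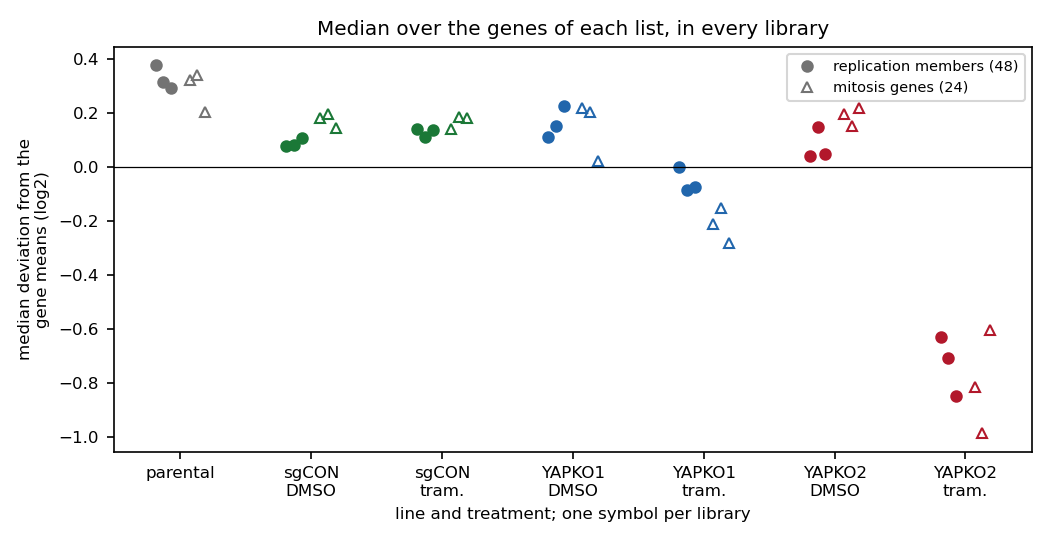
Median deviation (vertical axis, log2) of the 48 replication members (filled circles) and of 24 mitosis genes (open triangles) from each gene's mean over all 21 libraries, for each library of the 7 groups (horizontal axis). The 3 YAPKO2 trametinib libraries sit between -0.85 and -0.63 for the members, and the parental libraries are the highest at 0.29 to 0.38.

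The response to trametinib was compared between lines by the difference of the log2 changes. Against sgCON, YAPKO2 had a lower response for 31 members and a higher one for 0 (4.83% of all tested genes called, 3.03% lower), with a median difference of -0.91. RRM1 (-1.34 ± 0.16, adjusted p = 1.08e-04), MCM4 (-1.14 ± 0.15, adjusted p = 2.35e-04), POLD3 (-1.13 ± 0.17, adjusted p = 5.94e-04) and DTL (-1.13 ± 0.13, adjusted p = 1.01e-04) were among the largest differences called. Against YAPKO1, YAPKO2 had a lower response for 12 members and a higher one for 0 (0.808% of all tested genes called, 0.59% lower), with a median of -0.63. All 12 had also passed the test against sgCON, but both tests use the same YAPKO2 libraries. MCM10 differed most between the knockout lines (-1.07 ± 0.22, adjusted p = 0.0302). The count against YAPKO1 was 5 without replicate 1 or 2 of YAPKO1 with trametinib or without replicate 2 of YAPKO2 with DMSO, 6 without replicate 1 of that group, and 0 with a fit on the 4 groups alone. After the GC correction it was 25.

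The difference in response between YAPKO1 and sgCON passed the test for no single member: 0 of 48 were called by limma (0.249% of all tested genes), although 46 differences were below 0, the median was -0.30 and 12 members had an unadjusted p under 0.05. RRM1 had the lowest difference, at -0.62 ± 0.16, adjusted p = 0.174. The GC correction gave 1 member called and the fit that weights libraries by their spread gave 16.

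**Figure D4:**
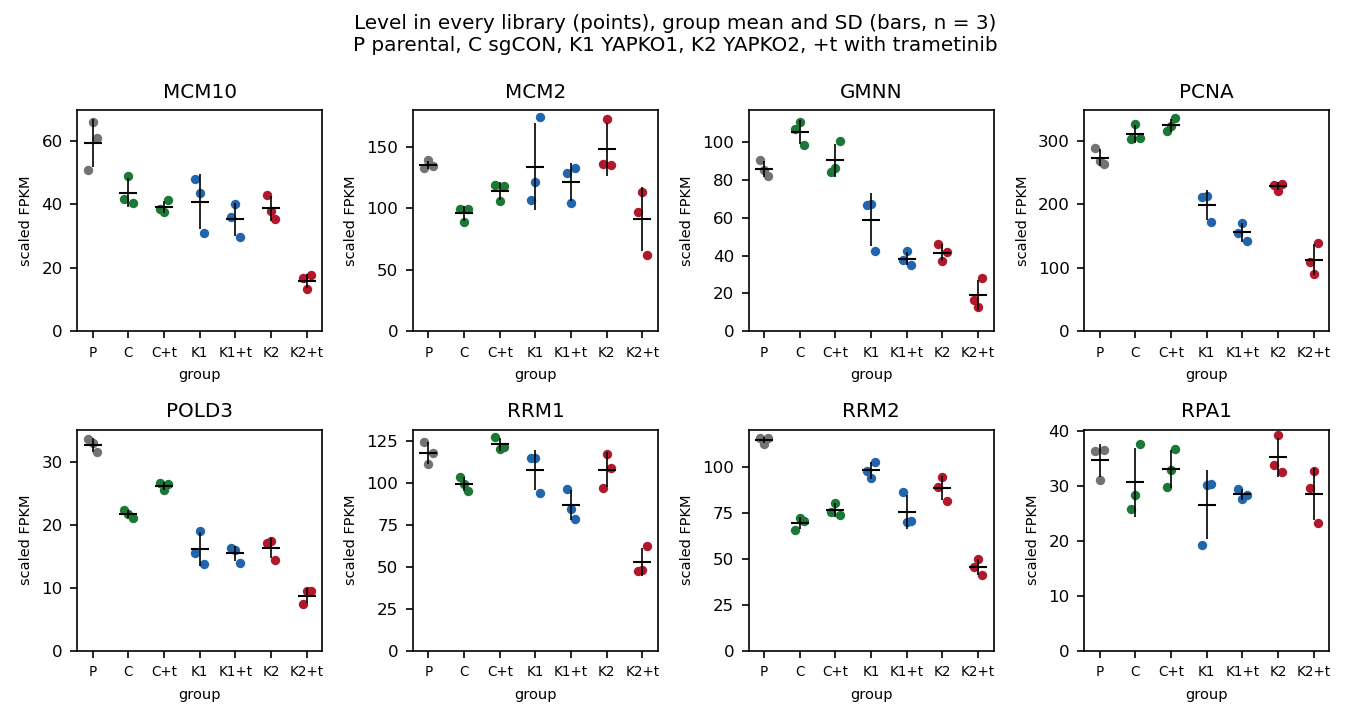
Scaled FPKM (vertical axes, from 0) of 8 members in each library (points) of the 7 groups (horizontal axes), with the group mean and SD (n = 3). MCM10 is between 13.3 and 17.6 in YAPKO2 with trametinib, below every other library, while the RPA1 groups overlap; GMNN, PCNA and POLD3 are lower in both knockout lines than in sgCON.

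Without the drug the knockout lines differed from sgCON in a few members, in both directions. In YAPKO1 3 members were higher and 3 lower (12.0% of all tested genes called, 6.18% higher and 5.81% lower). In YAPKO2 5 were higher and 5 lower (27.1% called, 14.1% higher and 13.1% lower). The share of members called was thus near the background in YAPKO1 and below it in YAPKO2. The median log2 differences were 0.10 and 0.04. Both comparisons use the same sgCON libraries.

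GMNN, PCNA and POLD3 were lower in both knockout lines with DMSO. GMNN had 107, 111 and 98.4 FPKM in sgCON, 66.7, 67.5 and 42.6 in YAPKO1 and 45.9, 37.1 and 41.8 in YAPKO2. Relative to sgCON the log2 differences were -0.86 ± 0.21, adjusted p = 0.0122 in YAPKO1 and -1.34 ± 0.21, adjusted p = 1.78e-04 in YAPKO2. Geminin RNA was thus lower in every knockout library than in any sgCON library. PCNA had 302, 327 and 304 FPKM in sgCON, 211, 213 and 171 in YAPKO1 (-0.65 ± 0.12, adjusted p = 0.00186) and 231, 221 and 232 in YAPKO2 (-0.44 ± 0.12, adjusted p = 0.0137). POLD3 had 22.4, 21.7 and 21.1 FPKM in sgCON, 15.6, 19.1 and 13.7 in YAPKO1 (-0.43 ± 0.12, adjusted p = 0.0245) and 17.1, 17.4 and 14.5 in YAPKO2 (-0.41 ± 0.12, adjusted p = 0.0187). For both genes no knockout library reached the sgCON range. In the GC-corrected fit all 3 genes were called in both lines, at -0.62 and -0.93 for GMNN, -0.57 and -0.33 for PCNA, and -0.35 and -0.30 for POLD3.

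RPA2 and RRM2 were higher in both knockout lines with DMSO. RPA2, the middle subunit of RPA that checkpoint kinases phosphorylate, had 64.3, 68.5 and 63.8 FPKM in sgCON, 84.4, 90.1 and 111 in YAPKO1 and 80.7, 96.6 and 88.2 in YAPKO2. RRM2, the ribonucleotide reductase subunit that is made in S phase, had 65.6, 71.9 and 70.6 FPKM in sgCON, 97.8, 93.7 and 103 in YAPKO1 and 89.1, 94.3 and 81.3 in YAPKO2. Neither gene's knockout values overlapped sgCON, and the differences were 0.52 ± 0.11 and 0.43 ± 0.11 for RPA2 and 0.50 ± 0.09 and 0.34 ± 0.09 for RRM2. YAPKO1 also had more POLE2 (0.53 ± 0.17, adjusted p = 0.0487). YAPKO2 also had more MCM2 (0.61 ± 0.19, adjusted p = 0.0247), GINS2 (0.44 ± 0.13, adjusted p = 0.0182) and RPA3 (0.29 ± 0.10, adjusted p = 0.0396), and less GINS3 (-0.31 ± 0.10, adjusted p = 0.0315) and RFC4 (-0.76 ± 0.19, adjusted p = 0.0068). Some of the higher genes had a lower mean in sgCON than in parental cells. Parental and sgCON means were 115 and 69.4 FPKM for RRM2, 21.1 and 10.3 for POLE2, 23.2 and 15.4 for GINS2, and 135 and 96.1 for MCM2. Knockout means were 98.1 and 88.2 for RRM2, 15.2 for POLE2 in YAPKO1, and 21.2 for GINS2 and 148 for MCM2 in YAPKO2. Of these, only MCM2 was above its parental mean. RPA2 was alike in parental cells and sgCON (66.9 and 65.6). Tested directly between the knockout lines in DMSO, 0 of the 48 members were called (6.97% of all tested genes called; limma, 6 members at an unadjusted p under 0.05). For YAPKO2 against sgCON in DMSO, leaving out replicate 2 of YAPKO2, a library of high GC trend, gave 0 members higher and 4 lower. RPA2 and RRM2 were thus not called higher in YAPKO2 without that library. Without replicate 1 or 2 of sgCON the counts were 2 and 3, and 3 and 2. With a fit on the groups compared alone, 20 members were called in YAPKO2 and 2 in YAPKO1 (PCNA and RRM2), and after the GC correction 16 and 12.

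**Figure D5:**
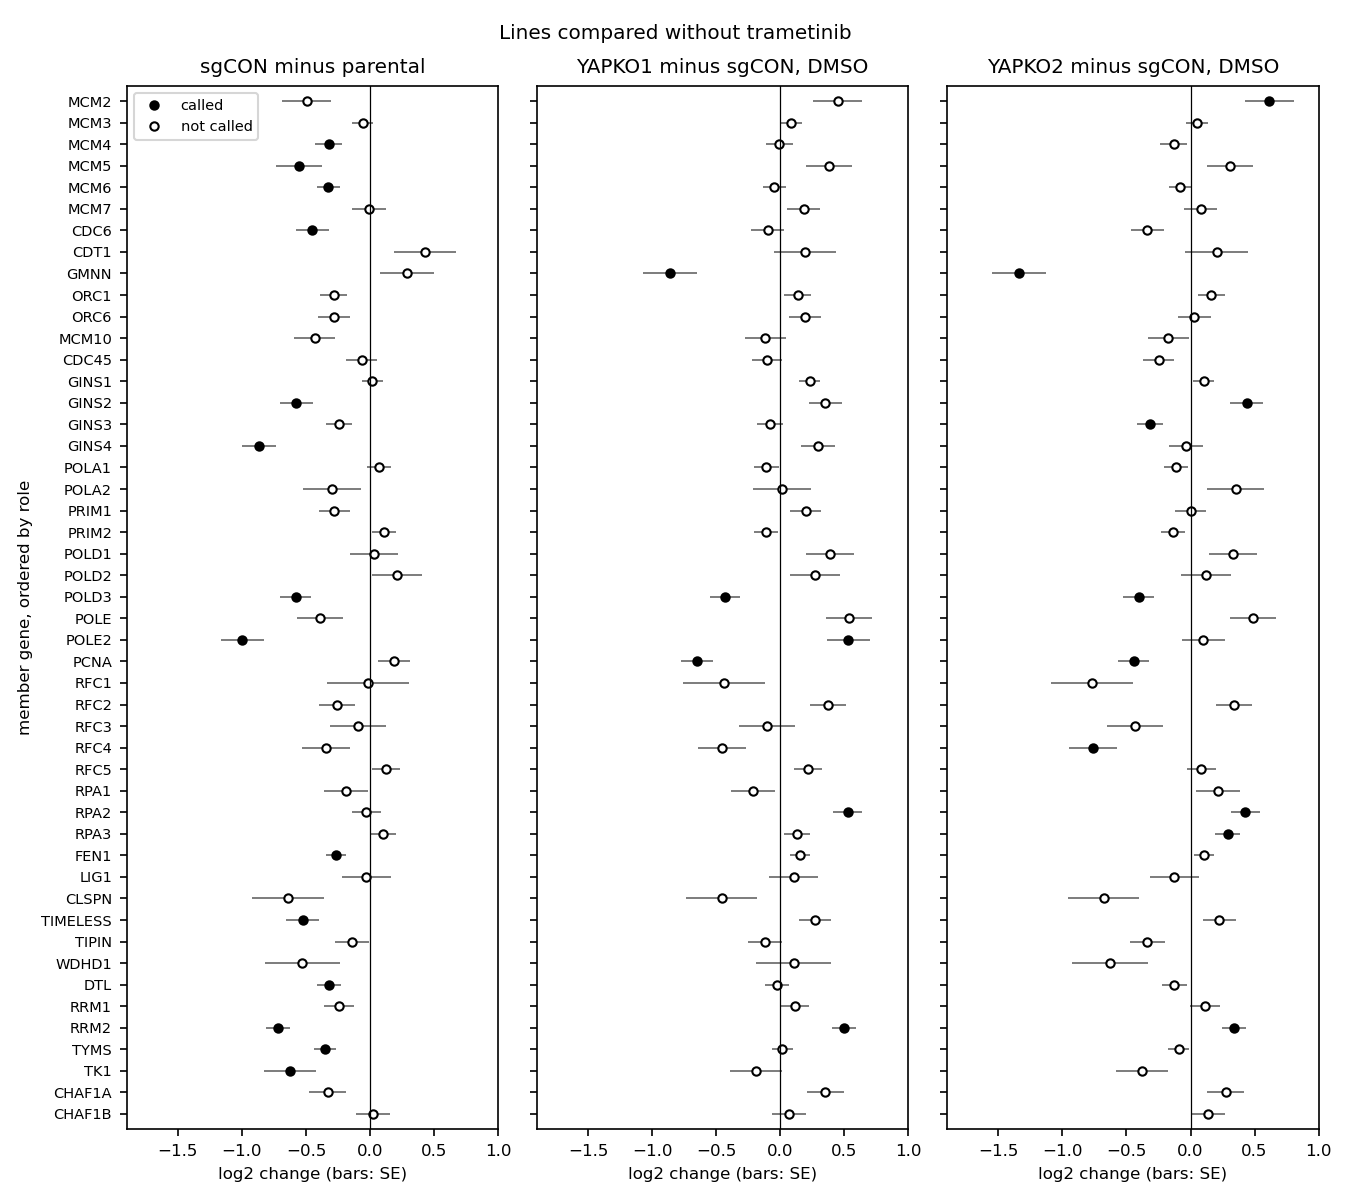
Log2 difference (horizontal axes, bars are standard errors) of each member (vertical axis, by role) for sgCON minus parental, YAPKO1 minus sgCON and YAPKO2 minus sgCON, all without trametinib; filled points passed the test. GMNN, POLD3 and PCNA are filled on the left in both knockout panels, and most points of the first panel lie left of 0.

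With trametinib the lines stood further apart. In YAPKO1 10 members were lower than in sgCON and 0 higher (15.0% of all tested genes called, 7.18% lower), with a median of -0.14: MCM4, CDC6, GMNN, POLD3, PCNA, RFC4, CLSPN, DTL, RRM1 and TYMS. In YAPKO2 42 were lower and 0 higher (36.3% called, 18.6% lower), with a median of -0.83. GMNN was the lowest in both, at -1.23 ± 0.21 and -2.28 ± 0.21, with 84.3, 86.4 and 100.5 FPKM in sgCON, 37.6, 42.3 and 35.2 in YAPKO1 and 16.6, 12.8 and 28.2 in YAPKO2. These 3 sets of values did not overlap. CLSPN followed in YAPKO2 (-2.03 ± 0.28), with 22.5, 22.1 and 22.2 FPKM in sgCON, 11.4, 14.6 and 10.1 in YAPKO1 and 5.88, 2.4 and 8.89 in YAPKO2. Between the knockout lines with trametinib, 38 members were lower in YAPKO2 and 0 higher (14.2% called, 7.69% lower; median -0.70), and 7 with a fit on these 2 groups alone. The YAPKO1 count was 6 without replicate 3 of either of its groups compared (sgCON or YAPKO1 with trametinib), 16 after the GC correction (DTL was then not called, adjusted p = 0.37) and 17 without the 3 libraries of high GC trend.

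The control line itself had less replication gene RNA than the parental cells. Of the 48 members 14 were lower in sgCON with DMSO and 0 higher (15.9% of all tested genes called, 7.87% lower), with a median log2 difference of -0.27. POLE2 had 20.3, 22.3 and 20.6 FPKM in parental cells and 10.3, 9.43 and 11.2 in sgCON (-1.0 ± 0.17, adjusted p = 5.42e-04), and GINS4 28.4, 27.3 and 25.0 and 14.7, 12.7 and 16.3 (-0.87 ± 0.13, adjusted p = 2.03e-04). RRM2 had 115, 112 and 116 FPKM in parental cells and 65.6, 71.9 and 70.6 in sgCON (-0.72 ± 0.09, adjusted p = 5.18e-05). These 3 genes were separated widely between the groups. The others were MCM4, MCM5, MCM6, CDC6, GINS2, POLD3, FEN1, TIMELESS, DTL, TYMS and TK1, from -0.27 for FEN1 to -0.63 for TK1. Geminin and PCNA did not share this direction, at 0.29 ± 0.21 and 0.19 ± 0.12, neither called. Only 6 to 9 members were called when any 1 of these 6 libraries was left out, and 30 with a fit on the 2 groups alone.

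Across the 7 groups, 26 members had their highest mean in the parental cells and 43 their lowest in YAPKO2 with trametinib. Neither these counts nor the next one were made over all tested genes, so their background shares are unknown. In 34 members all 3 YAPKO2 trametinib libraries lay below the other 18 libraries. The 14 that did not were MCM2, MCM5, CDT1, POLA2, POLD1, POLD2, POLE, RFC1, RFC4, RPA1, RPA2, LIG1, TIMELESS and TIPIN. POLD1, POLD2, POLE and RPA1 were called in none of the 13 comparisons. The summed level of all 48 members was 4036 to 4111 FPKM in the parental libraries, 3622 to 3679 in sgCON with DMSO, 3763 to 3922 in sgCON with trametinib and 1931 to 2338 in YAPKO2 with trametinib. It was 3613 to 4161 in YAPKO1 with DMSO, 3217 to 3406 in YAPKO1 with trametinib and 3514 to 3968 in YAPKO2 with DMSO. The YAPKO2 trametinib group was apart from the rest, while the DMSO groups of the derived lines overlapped.

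Transcript GC content moved with part of the differences among members. Across the 48 members, which share libraries and are not replicates, Spearman's rho between GC content and the log2 change with trametinib came to 0.56 for sgCON, 0.58 for YAPKO1 and 0.41 for YAPKO2, and to 0.23 to 0.27 across all tested genes. For the differences of response between lines it was 0.00 to 0.03 across the members. For YAPKO1 and YAPKO2 against sgCON in DMSO rho was 0.43 and 0.54 across the members, and 0.36 and 0.45 across all tested genes. The members' GC content ran from 38.8% (PRIM2) to 65.2% (CDT1), with a median of 48.2%, against 49.0% over tested protein-coding genes. Within YAPKO2 with trametinib the GC-rich TK1 had 45.2, 42.6 and 23.4 FPKM and the GC-poor WDHD1 3.16, 1.88 and 5.94. Replicate 3, of the lowest GC trend, was thus the lowest library for TK1 and the highest for WDHD1. After the GC correction 46 of 48 members were lower with trametinib in YAPKO2, among them 39 of the 40 called without it.

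Other replication genes were taken from a list that holds no member. Of 42 tested, 19 fell and 0 rose with trametinib in YAPKO2 (median log2 change -0.54), against 40 of 48 members and 20.1% of all tested genes called. TOP2A, the topoisomerase that untangles copied DNA, fell (-1.24 ± 0.42, adjusted p = 0.0437), and so did ESCO2, which locks cohesin onto sister strands (-1.45 ± 0.45, adjusted p = 0.0292). TOP2A had 78.2, 53.7 and 73.2 FPKM with DMSO and 32.5, 10.5 and 65.3 with trametinib, so its groups overlapped. Its transcripts have 38.9% GC, and replicate 2, the library of highest GC trend, was the lowest. The ORC subunits other than ORC1 and ORC6 had smaller changes: ORC2 -0.17 ± 0.13, ORC3 -0.32 ± 0.35, ORC4 -0.19 ± 0.20 and ORC5 -0.10 ± 0.12, none called. In sgCON, where 5.22% of all tested genes were called, 3 of the 42 rose (RNASEH2C, a subunit of the nuclease that removes RNA from DNA, 0.59 ± 0.16; TICRR, which loads CDC45, 0.51 ± 0.12; TONSL, 0.46 ± 0.13) and 1 fell (POLD4, -0.85 ± 0.23). In YAPKO1, where 7.85% were called, 0 rose and 2 fell (CHTF18, -0.55 ± 0.15, and MCMBP, -0.41 ± 0.07). For the response of YAPKO2 against sgCON (4.83% called), 9 were lower and 1 higher; the higher one was POLD4, the fourth subunit of polymerase delta (1.19 ± 0.33, adjusted p = 0.0431).

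Genes of mitosis and of cell cycle entry were set beside the members. Of 24 mitosis genes, 21 fell and 0 rose with trametinib in YAPKO2, with a median log2 change of -0.85, the same as that of the replication members. Of all tested genes 11.5% were called lower there. MAD2L1, a spindle checkpoint protein (-1.44 ± 0.23, adjusted p = 2.05e-04), KIF11, the motor that separates spindle poles (-1.27 ± 0.42, adjusted p = 0.0418), and CENPA, the centromeric histone (-1.17 ± 0.12, adjusted p = 2.81e-06), were lower. KIF11 had 22.8, 14.1 and 21.2 FPKM with DMSO and 8.24, 2.82 and 17.8 with trametinib, so its groups overlapped. Its transcripts have 38.3% GC, and replicate 2, the library of highest GC trend, was the lowest. In sgCON 0 of 24 were called (limma; 2 at an unadjusted p under 0.05, median -0.04), and in YAPKO1 5 fell (AURKA, AURKB, BUB1, CENPA and PTTG1; median -0.38). Of all tested genes 5.22% were called in either direction in sgCON, and 3.88% were called lower in YAPKO1. Tested as a difference of response, 16 of 24 were lower in YAPKO2 than in sgCON, 2 lower in YAPKO2 than in YAPKO1 and 1 lower in YAPKO1 than in sgCON, and 0 were higher. Of all tested genes 3.03% and 0.59% were called lower for YAPKO2 against sgCON and against YAPKO1. For YAPKO1 against sgCON 0.249% were called in either direction. The list of 10 cell cycle entry genes mixes cyclins, E2F factors and MYCN with an inhibitor of entry, CDKN1A. With trametinib 7 of the 10 fell in YAPKO2, 4 in YAPKO1 and 2 in sgCON, and 0 rose. The shares of all tested genes given above for each line apply to these counts too. CDKN1A, the CDK inhibitor p21, was 1 of the 4 in YAPKO1, from 144, 148 and 201 FPKM with DMSO to 82.2, 71.5 and 78.8 with trametinib (-1.07 ± 0.15, adjusted p = 1.72e-04). It had 394, 398 and 378 FPKM in sgCON and 87.5, 99.0 and 97.0 in YAPKO2 with DMSO, so both knockout lines were below sgCON, and it was not called with trametinib in YAPKO2 (-0.26 ± 0.15). MYCN, the oncogenic transcription factor of neuroblastoma, was lower with trametinib in each line, at -0.88 ± 0.12, adjusted p = 2.13e-04 in sgCON, -1.35 ± 0.12, adjusted p = 1.84e-06 in YAPKO1 and -1.39 ± 0.12, adjusted p = 5.61e-07 in YAPKO2. CCNE1, cyclin E1, which starts S phase with CDK2, also fell in each line, with log2 changes of -0.50 ± 0.13, -0.73 ± 0.13 and -0.96 ± 0.13. E2F2 fell in YAPKO2 (-0.94 ± 0.14, adjusted p = 1.20e-04), and its response was lower than in sgCON (-1.27 ± 0.20, adjusted p = 7.83e-04).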

How the data were processed

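RNA was sequenced from 21 libraries of NLF cells in 7 groups of 3. The authors deposited FPKM values of 57820 genes in a calibrated and an uncalibrated table. Per the submitters' processing notes, STAR 2.4.2, RSEM 1.3.0 and the hg19 build were used; whether the quantification used strand is not given in the sources used here. The calibrated FPKM deposited equal the uncalibrated ones multiplied by a single factor for each library (0.927 to 1.07), exactly up to a relative deviation of 1.40e-14. The labels give the DMSO as 0.01% and the series text as 0.1%.

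The calibrated FPKM were scaled by median ratios (factors 0.930 to 1.11), and the 16092 genes that reached 1 in 3 or more libraries were tested. Values in the text are scaled FPKM. On log2(scaled FPKM + 0.5), limma 3.58.1 (R 4.3.3) fitted 7 group means over all libraries, with a mean-variance trend. It tested 13 comparisons, each Benjamini-Hochberg adjusted over all genes, and calls are at an adjusted p under 0.05. Fold changes are on the log2(value + pseudocount) scale, which understates changes of low genes. Transcript GC content came from the reference annotation, for 15522 of the tested genes, and was corrected with a spline of 5 degrees of freedom per library. RefSeq promoters came from GRCh38.p14, another build than that of the files, and were matched by symbol. The count of reads is unknown, so no interval for counting error is given. No library pair held identical values.

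All members could be named, by role, with library values for up to 3 called members per role of largest change with trametinib in YAPKO2, a few textbook examples, members called against the common direction and members called in no comparison. Up to 3 genes of each other list were named by size of change, apart from 1 that is not reported here; the ORC subunits and the lists of 5 or fewer genes were named after their values were seen. The members and lists were chosen with earlier results of these data known. In simulated data for the comparison of trametinib with DMSO in YAPKO2 (16092 genes, 200 of them changed), the fit called 66.7% of 99 genes changed by a log2 of 1 and 17.8% of 101 changed by 0.5, with 2 calls among the other genes. Simulated errors were independent between genes, without the GC trends of the real libraries. Fewer genes were changed than the 3231 called in the data, so these rates need not hold there. Alternatives were the pseudocount, no filter, both tables as deposited, quantile normalization, a fit on the compared groups alone, library weights, the replicate number as a block, the GC correction, leaving out libraries and a minimum fold of 1.5.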

Additional observations from a re-analysis of the deposited data

Results flagged for a closer look

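The response to trametinib differed between lines in the test of the difference itself. It was lower in YAPKO2 than in sgCON for 31 members and lower than in YAPKO1 for 12, and these 12 were also among the 31; both tests share the YAPKO2 libraries. Of all tested genes 3.03% and 0.59% were called lower in these tests. The count against YAPKO1 ran from 5 to 14 with 1 library left out. No member was called against YAPKO1 with a fit on the compared groups alone. Among the helicase subunits the log2 differences from sgCON and from YAPKO1 were -0.84 and -0.66 for MCM3, -1.14 and -0.74 for MCM4, and -0.86 and -0.70 for MCM6. Among the activation and polymerase genes they were -1.11 and -1.07 for MCM10, -1.09 and -0.74 for GINS1, -0.83 and -0.65 for POLA1, and -1.13 and -0.82 for POLD3. For the other genes they were -0.86 and -0.71 for RPA3, -1.07 and -0.76 for FEN1, -1.13 and -0.80 for DTL, -1.34 and -0.72 for RRM1, and -1.0 and -0.58 for TYMS. In each of these the change with trametinib was lower in YAPKO2 than in either other line.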

How the results depend on the processing

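Under every alternative run, members called for trametinib in YAPKO2 were lower, and of 137 called results for named members recomputed 2777 times, 2461 kept their direction and call, 316 lost the call and 0 turned direction; the cause was not tested except where fewer samples were used. Counts below are members called in either direction, out of 48, and medians are log2. Calls over all tested genes also move with the setting. For trametinib in YAPKO2 they were 3231 in the main fit, 2927 with the calibrated and 3286 with the uncalibrated table as deposited. Shares of all tested genes are not given beside the counts under alternatives, here or above. Such a count alone thus does not show whether members exceeded the background. For trametinib in sgCON (1 called, median 0.08), the count was 2 with the uncalibrated table, 2 with quantile normalization, 2 without the 3 libraries of high GC trend and 0 with a minimum fold of 1.5. The median there was 0.12 with either table as deposited, 0.15 with quantile normalization and 0.11 with the GC correction, with or without the block. For YAPKO1 (4, median -0.20), quantile normalization gave 2 and a median of -0.13, leaving out the 3 libraries gave 15 and the minimum fold 0.

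With a fit on the compared groups alone, which has fewer samples, the counts were 10, 0 and 22 for trametinib in sgCON, YAPKO1 and YAPKO2, 2 and 20 for YAPKO1 and YAPKO2 against sgCON in DMSO, 0 for the response of YAPKO2 against YAPKO1, 30 for sgCON against parental and 7 for the knockout lines with trametinib. With library weights, whose estimation stopped before convergence, they were 11 and 29 for trametinib in sgCON and YAPKO1, 26 and 24 for the knockout lines in DMSO, 21 for YAPKO1 against sgCON with trametinib, 16 and 36 for the responses of YAPKO1 against sgCON and YAPKO2 against YAPKO1, 30 against parental and 19 between the knockout lines in DMSO. Medians with weights were -0.73 for trametinib in YAPKO2, 0.059 for YAPKO1 in DMSO, and -0.26, -0.79 and -0.54 for the responses of YAPKO1 and YAPKO2 against sgCON and YAPKO2 against YAPKO1.

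With the GC correction the counts were 4 and 13 for trametinib in sgCON and YAPKO1, 12 and 16 for the knockout lines in DMSO, 16 for YAPKO1 with trametinib, 1 and 25 for the responses of YAPKO1 against sgCON and YAPKO2 against YAPKO1, 22 against parental (median -0.23) and 4 between the knockout lines in DMSO. Without the 3 libraries of high GC trend, YAPKO1 with trametinib had 17 against sgCON, its response 1 (median -0.25), the knockout lines in DMSO 2 between them, and the DMSO medians were 0.046 for YAPKO1 and -0.0096 for YAPKO2. A minimum fold of 1.5 gave 2, 3, 5 and 4 for YAPKO1 and YAPKO2 in DMSO, YAPKO1 with trametinib and sgCON against parental. The calibrated table as deposited gave 7 for the response of YAPKO2 against YAPKO1, and quantile normalization a median of -0.31 against parental.

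Same-numbered libraries had median correlations of -0.006, -0.008 and -0.005 over 21 pairs each, taken on deviations from the group means. Single pairs ran from -0.12 to 0.19 for replicate 1, -0.33 to 0.36 for replicate 2 and -0.55 to 0.23 for replicate 3. Whether same-numbered libraries were prepared together cannot be read from these values. With the replicate block, counts were 0, 4 and 37 for trametinib in sgCON, YAPKO1 and YAPKO2, 5 and 9 for the knockout lines in DMSO, 9 and 41 with trametinib, 0, 25 and 8 for the responses of YAPKO1 and YAPKO2 against sgCON and YAPKO2 against YAPKO1, 12 against parental, and 0 and 37 between the knockout lines. The block with the GC correction gave 4 and 12 for trametinib in sgCON and YAPKO1, 12 and 16 in DMSO, 16 for YAPKO1 with trametinib, 23 for the response of YAPKO2 against YAPKO1, 3 between the knockout lines in DMSO, and a median of -0.23 against parental.

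Leaving out 1 library at a time gave counts of 0 to 1 (medians 0.052 to 0.099) for trametinib in sgCON, 1 to 10 (-0.24 to -0.19) in YAPKO1 and 36 to 40 (-0.87 to -0.77) in YAPKO2. In DMSO the counts were 4 to 6 (0.046 to 0.11) for YAPKO1 and 4 to 9 (-0.0096 to 0.070) for YAPKO2, and with trametinib 6 to 11 (-0.16 to -0.11) and 40 to 44 (-0.88 to -0.73). The responses gave 0 (-0.31 to -0.25) for YAPKO1 and 24 to 34 (-0.97 to -0.86) for YAPKO2 against sgCON, and 5 to 14 (-0.66 to -0.55) for YAPKO2 against YAPKO1. Against parental the counts were 6 to 9 (-0.28 to -0.25), and between the knockout lines 0 to 1 (-0.14 to -0.06) in DMSO and 33 to 39 (-0.73 to -0.62) with trametinib. With 3 libraries per group and unknown depth, small changes can be missed.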
